A study of Homo sapiens with 9 samples.

Results

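Keratins are the intermediate filament proteins of epithelial cells. A filament is built from pairs of a type II keratin, encoded on chromosome 12, and a type I keratin, encoded on chromosome 17, and each epithelium uses its own pairs. Simple epithelia use KRT8 with KRT18, KRT7 and KRT19, the basal layer of stratified epithelia uses KRT5 with KRT14, and the hair shaft uses a large set of hair keratins. Cells of the breast duct carry simple epithelial keratins in the luminal layer and KRT5 and KRT14 in the basal layer, and keratin genes are commonly lowered when epithelial cells take on a mesenchymal form, in which vimentin is the main filament.

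The genes described here are the 55 protein-coding genes of GENCODE v44 on chromosomes 12 and 17 whose symbol is KRT followed by a number, out of 20033 protein-coding genes in all. Of these, 27 lie on chromosome 12 and 28 on chromosome 17. They were sorted by textbook expression into 6 simple epithelial, 3 basal, 5 wound and activation, 5 suprabasal epidermal, 6 mucosal and corneal, 9 inner root sheath and companion layer and 17 hair keratins and 4 other epithelial keratins. A promoter was taken as the window of 1 kb on either side of the transcription start site (TSS) of the Ensembl canonical transcript. No keratin windows overlapped, as the closest start sites were 8759 bp apart.

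Chromatin accessibility had been measured by ATAC-seq, in which the Tn5 transposase cuts and tags open DNA, in 9 libraries of MDA-MB-231, an established human triple-negative breast cancer cell line of mesenchymal-like form. There were 2 libraries each of cells transduced with a control shRNA (shCtrl), with an shRNA against EZH2 (shEZH2) and with one against E2F1 (shE2F1), and 1 library of cells with an shRNA against SUZ12 (shSUZ12). EZH2 and SUZ12 are subunits of the repressive complex PRC2, and E2F1 is a transcription factor of the cell cycle. Knockdown cells had been transduced for 24 h and selected with puromycin at 2 μg/ml for 72 h, and 1 library each came from cells given GSK126, an inhibitor of EZH2, or its solvent DMSO. The label of the DMSO library names its treatment WT, and its group was taken from its title. Peak lists held 58626 to 85812 peaks, fewest in shEZH2 replicate 2. Nothing in the labels says whether replicates were separate cultures, so spreads between them may be technical. The lists do not measure RNA or protein, so neither knockdown nor keratin expression was read from them.

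The sequences under the promoter peaks of KRT18, KRT80 and KRT16 are printed to show the letters at the summits of 3 of the genes open in every library. Each line gives 101 bases, 5′ to 3′ on the strand of the gene, of the hg38 reference around the median summit, the base where a peak was highest. For KRT18 the window was moved downstream to leave out annotated UTR sequence, so its summit is base 19 of the line. Capitals mark matches, on either strand, to TGANTCA (the AP-1 motif), GGAATG (the TEAD motif) and GGGCGG (the SP1 motif).
KRT18, chr12:52949883-52949983, plus strand: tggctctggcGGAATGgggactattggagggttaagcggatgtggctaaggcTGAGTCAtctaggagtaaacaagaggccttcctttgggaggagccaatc
KRT80, chr12:52192268-52192368, minus strand: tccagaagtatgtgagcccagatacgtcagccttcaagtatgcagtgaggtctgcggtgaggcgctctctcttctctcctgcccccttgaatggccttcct
KRT16, chr17:41613036-41613136, minus strand: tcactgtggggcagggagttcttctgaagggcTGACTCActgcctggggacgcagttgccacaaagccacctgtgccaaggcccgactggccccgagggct
The basal keratin KRT5 had no peak, and 101 bases upstream of its start site, moved past an annotated exon, are shown for contrast.
KRT5, chr12:52520531-52520631, minus strand: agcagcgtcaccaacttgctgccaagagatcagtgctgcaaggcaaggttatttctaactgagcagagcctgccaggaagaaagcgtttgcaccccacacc
An AP-1 match stood in the lines of KRT18 and KRT16, a TEAD match in that of KRT18, and none of the 3 motifs in those of KRT80 and KRT5. Within 50 bp of the summit, an AP-1 match was held by 3.62% of the 11090 regions in promoter windows that were open in every library and by 34.0% of the 29516 such regions outside promoter windows. For the TEAD motif these shares were 3.64% and 12.9%, and for the SP1 motif 51.2% and 8.79%. A match is a description of the letters and does not show that a factor was bound.

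Few keratin promoters were open, and 3 of the 5 open in every library were those of simple epithelial keratins. A promoter peak was present in all 9 libraries for 5 of 55 keratin genes (9.09%), beside 60.0% of all protein-coding promoters, and in at least 1 library for 8 of 55 (14.5%), beside 70.9%. Of the 6 simple epithelial keratins, KRT8, KRT18 and KRT19 had a peak in all 9 libraries and KRT7 in 7, while KRT20 and KRT23 had none. None of the 3 basal keratins KRT5, KRT14 and KRT15 had a promoter peak in any library. Of the 17 hair keratins none had a peak in all 9 libraries, and KRT81 had one in the DMSO library alone. The remaining open promoters were those of KRT16, an activation keratin of wounded epidermis, and KRT80, a widely expressed epithelial keratin, each in all 9 libraries, and that of KRT78 in 5.

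**Figure D1:**
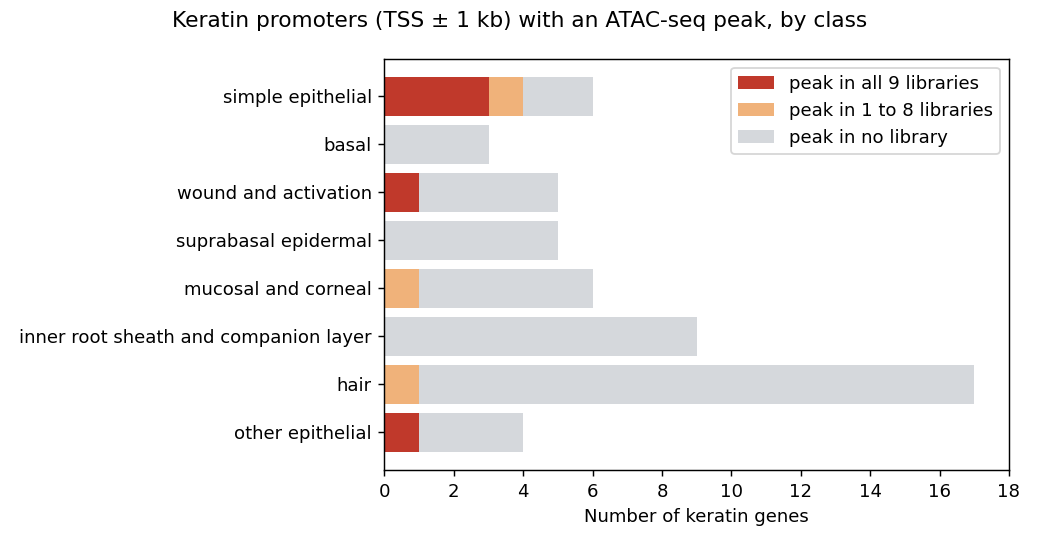
Number of keratin genes (horizontal axis) in each class, split into those with a promoter peak in all 9 libraries, in 1 to 8 libraries and in no library. Simple epithelial keratins hold 3 of the 5 genes open throughout, and the 17 hair keratins hold none.

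The remaining 47 keratins had no promoter peak in any library, with or without knockdown or inhibitor. These were the basal keratins, KRT6A, KRT6B, KRT6C and KRT17 among the activation keratins, all 5 suprabasal keratins (KRT1, KRT2, KRT9, KRT10 and KRT77), all but KRT78 of the mucosal and corneal keratins, all 9 inner root sheath and companion layer keratins, 16 hair keratins, KRT20, KRT23, KRT24, KRT79 and KRT222. KRT16 and KRT17 are neighbours on chromosome 17 and are induced together in activated epidermis, and only the KRT16 promoter held a peak in these libraries. Neither partner of KRT16 in activated epidermis, KRT6A or KRT6B, had one. A missing peak says that no enrichment was called at these depths, which differ between libraries.

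Where several start sites are annotated, the choice between them mattered for one basal keratin. With windows at the start of any protein-coding transcript, 7 keratins instead of 5 were open in all 9 libraries, and the added genes were KRT15 and KRT78. For KRT15 a region from 41521537 to 41522859 on chromosome 17 covered start sites 2829 and 3639 bp upstream of the canonical one, and its percentile of fold enrichment ran from 32.3 to 59.7. KRT8 also had longer transcripts. Their starts lay 21393 bp upstream, at a region with percentiles from 59.0 to 70.4, and at 44700 to 44806 bp upstream, inside the first intron of KRT18. KRT8 and KRT18 are transcribed away from each other, so the strongest peak in the KRT18 promoter window lay in a KRT18 intron and at annotated starts of KRT8, and cannot be given to one of them.

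The strength of a peak was described by its percentile of fold enrichment within the list of its own library, because lists differ in length and depth. KRT16, on chromosome 17 with its TSS at 41612767, stood highest. Its percentile was 94.7 and 90.5 in shCtrl, 82.1 and 87.8 in shEZH2, 92.2 and 90.6 in shE2F1, 80.9 in DMSO, 80.9 in GSK126 and 90.4 in shSUZ12. Its summits lay at -330 to -275 bp from the TSS (negative values are upstream), and fold enrichment ran from 10.4 to 14.4. Within 200 bp of the median summit, 27.5% of the 31-base words of the reference occur again elsewhere in the genome, so part of the reads counted there could come from a near-identical copy.

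KRT8 and KRT18, the obligate pair of simple epithelia, stood in the middle of the lists. KRT8 (chromosome 12, TSS 52905076) was at the percentiles 41.4 and 51.6 in shCtrl, 62.2 and 37.2 in shEZH2, 50.4 and 58.7 in shE2F1, 59.6 in DMSO, 46.1 in GSK126 and 49.1 in shSUZ12. Its summits lay at -87 to -72 bp from the TSS in every library. KRT18 (chromosome 12, TSS 52949118) was at 49.3 and 39.2 in shCtrl, 69.8 and 71.2 in shEZH2, 35.4 and 48.8 in shE2F1, 52.3 in DMSO, 54.9 in GSK126 and 37.2 in shSUZ12. Its strongest peak lay not at the TSS but 779 to 789 bp downstream, in intron 1, and a weaker region from 52948792 to 52949326 covered the TSS itself at a mean percentile of 7.7. The words around the intronic summit occur nowhere else in the genome (0%), against 14.0% around the KRT8 summit.

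KRT80 (chromosome 12, TSS 52192014) was at 52.9 and 59.4 in shCtrl, 48.6 and 65.7 in shEZH2, 29.8 and 62.2 in shE2F1, 58.9 in DMSO, 55.3 in GSK126 and 60.3 in shSUZ12. Its summit lay at -309 to -295 bp from the TSS in 8 libraries and at -8 bp in shEZH2 replicate 1. KRT19 (chromosome 17, TSS 41528308), a type I keratin of luminal cells, was low in every list. It was at 3.84 and 25.2 in shCtrl, 22.1 and 4.88 in shEZH2, 3.82 and 25.3 in shE2F1, 22.8 in DMSO, 18 in GSK126 and 30.2 in shSUZ12, so replicates of 1 group lay as far apart as the groups. KRT7 (chromosome 12, TSS 52233243), the usual partner of KRT19 in glands, was near the bottom, at percentiles of 0.0325 to 6.62 in the 7 libraries where it was called. It was not called in shEZH2 replicate 2 and shE2F1 replicate 1, the libraries with the 2 shortest lists (58626 and 68294 peaks).

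The 2 other genes were marginal. The KRT78 peak (percentiles 30.4 to 67.7 in 5 libraries) had its summit 1106 to 1158 bp inside the gene and only reached the edge of the promoter window, and the region it belongs to was called in all 9 libraries. The KRT81 peak in the DMSO library (percentile 23.1) had its summit 854 bp downstream of the TSS. In the KRT81 window 40.9% of the 31-base words occur elsewhere.

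Fold enrichment divides a summit by its local background, and the order of the keratins depended on that. The number of tags at the summit and the local background were recovered from the deposited fold enrichment and −log10 p. By tags, KRT8 held 142 and 196 in shCtrl, 136 and 79 in shEZH2, 89 and 138 in shE2F1, 192 in DMSO, 131 in GSK126 and 193 in shSUZ12. KRT18 held 86 to 193 tags, KRT80 67 to 191, KRT19 51 to 162, KRT16 52 to 117 and KRT7 38 to 107, beside medians of 27 to 39 tags over all peaks of a library. Ranked by tags, KRT8, KRT18 and KRT80 stood at median percentiles of 96.1, 96.0 and 95.7, KRT19 at 91.1, KRT16 at 84.4 and KRT7 at 76.1. The local background was 11.4 to 32.1 tags at KRT7, KRT8, KRT18, KRT19 and KRT80, in the top 5% of each list, and 3.66 to 7.60 tags at KRT16. The peaks at KRT8, KRT18, KRT19 and KRT80 thus held many tags over a raised local background. By median rank of tags the KRT16 peak stood lower, over a lower background, and the KRT7 peak lower still, over a raised one.

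**Figure D2:**
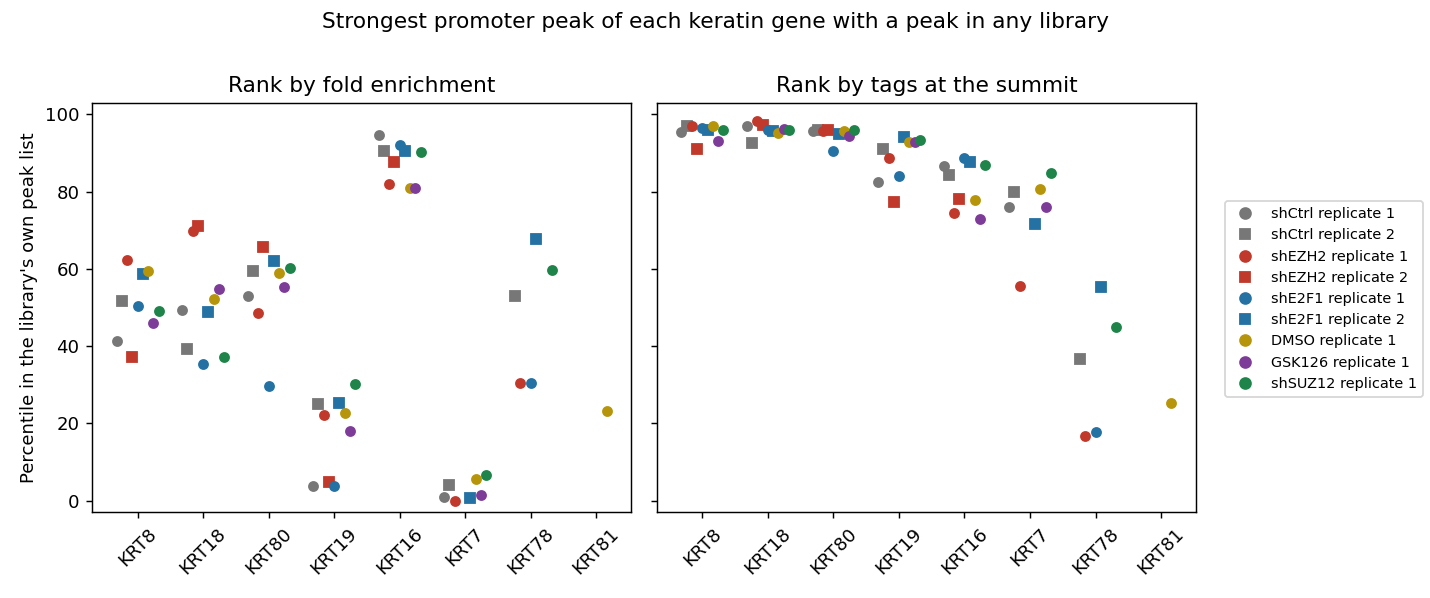
Percentile of the strongest promoter peak within its own library's list (vertical axis), by fold enrichment (left) and by tags at the summit (right), for the 8 keratins with a peak in any library. Each point is a library. KRT16 leads on the left, and KRT8, KRT18 and KRT80 lead on the right.

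Keratin promoters share a sequence make-up that the choice of genes did not use. The ratio of observed to expected CpG within 500 bp of the TSS had a median of 0.269 over the 55 keratins and of 0.725 over all protein-coding genes, and it was under 0.4 for 47 of 55 keratins (85.5%) beside 24.7% of all genes. Among promoters under 0.4, 3 of 47 keratins (6.38%) and 11% of all genes had a peak in all 9 libraries. Among the CpG-richer promoters, 2 of 8 keratins (25%) and 76.1% of all genes did. The richest keratin promoters were those of KRT19 (0.752), KRT7 (0.713) and KRT18 (0.691), and the peaks at KRT8 (0.344), KRT16 (0.338) and KRT80 (0.293) lay in CpG-poor promoters. The letters TATAAA, on the gene strand within 50 bp upstream of the TSS, were held by 21 of 55 keratins (38.2%) beside 4.2% of all promoters, and by 2 of the 5 open throughout (KRT8 and KRT16) and 19 of the 47 never open. An SP1 match within 300 bp upstream of the TSS was held by 11 of 55 keratins (20.0%) beside 60.8% of all promoters. It was held by 4 of the 5 open throughout (KRT8, KRT18, KRT19 and KRT80) and 6 of the 47 never open. An AP-1 match there was held by 7 of 55 keratins (12.7%) beside 5.76%, by KRT16 alone of the 5 open throughout and by 6 of the 47.

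**Figure D3:**
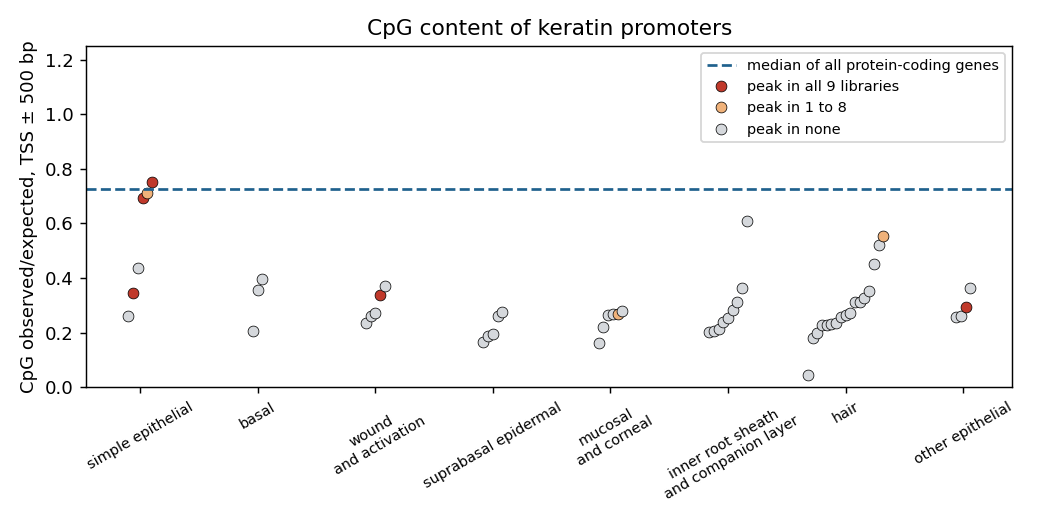
Observed over expected CpG within 500 bp of the TSS (vertical axis) for each keratin gene, by class, coloured by the number of libraries with a promoter peak. The dashed line is the median of all protein-coding genes, 0.725, and 1 keratin, KRT19 at 0.752, lies above it.

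Both clusters held many open regions, at promoters and between them. The chromosome 12 cluster runs from 52168996 to 52952906 (784 kb) and the chromosome 17 cluster, which also holds keratin-associated protein genes, from 40654665 to 41624842 (970 kb). Peaks of the 9 libraries merged into 69 regions on chromosome 12, of which 21 were found in all 9 libraries, and into 66 on chromosome 17, of which 28 were. That is 26.8 and 28.9 such regions per Mb, promoter windows included, beside 13.1 per Mb over the whole genome, gene-poor sequence included. They were strong on chromosome 17, with a median percentile of 74.3, and weaker on chromosome 12, with 48.9, beside 68.1 over the 40606 such regions of the genome. Of these 49 regions, 36 lay outside every promoter window, 16 on chromosome 12 and 20 on chromosome 17.

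The regions open in every library on chromosome 12 lay on either side of the middle of the cluster. Within 406 kb, from 52441644 to 52847378, no region was found in all 9 libraries, and 14 were found in 1 to 8. This stretch holds the start sites of 15 keratins, from KRT6B, KRT6C, KRT6A and KRT5 through KRT1 and KRT2 to KRT4 and KRT79. They are type II keratins of basal, activated and upper epidermal layers, of mucosa and cornea and of the inner root sheath. Such stretches are common, since 41.7% of the genome between regions open in every library lies in longer ones. On chromosome 17 the longest stretch (188 kb) holds no keratin gene and covers keratin-associated protein genes.

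**Figure D4:**
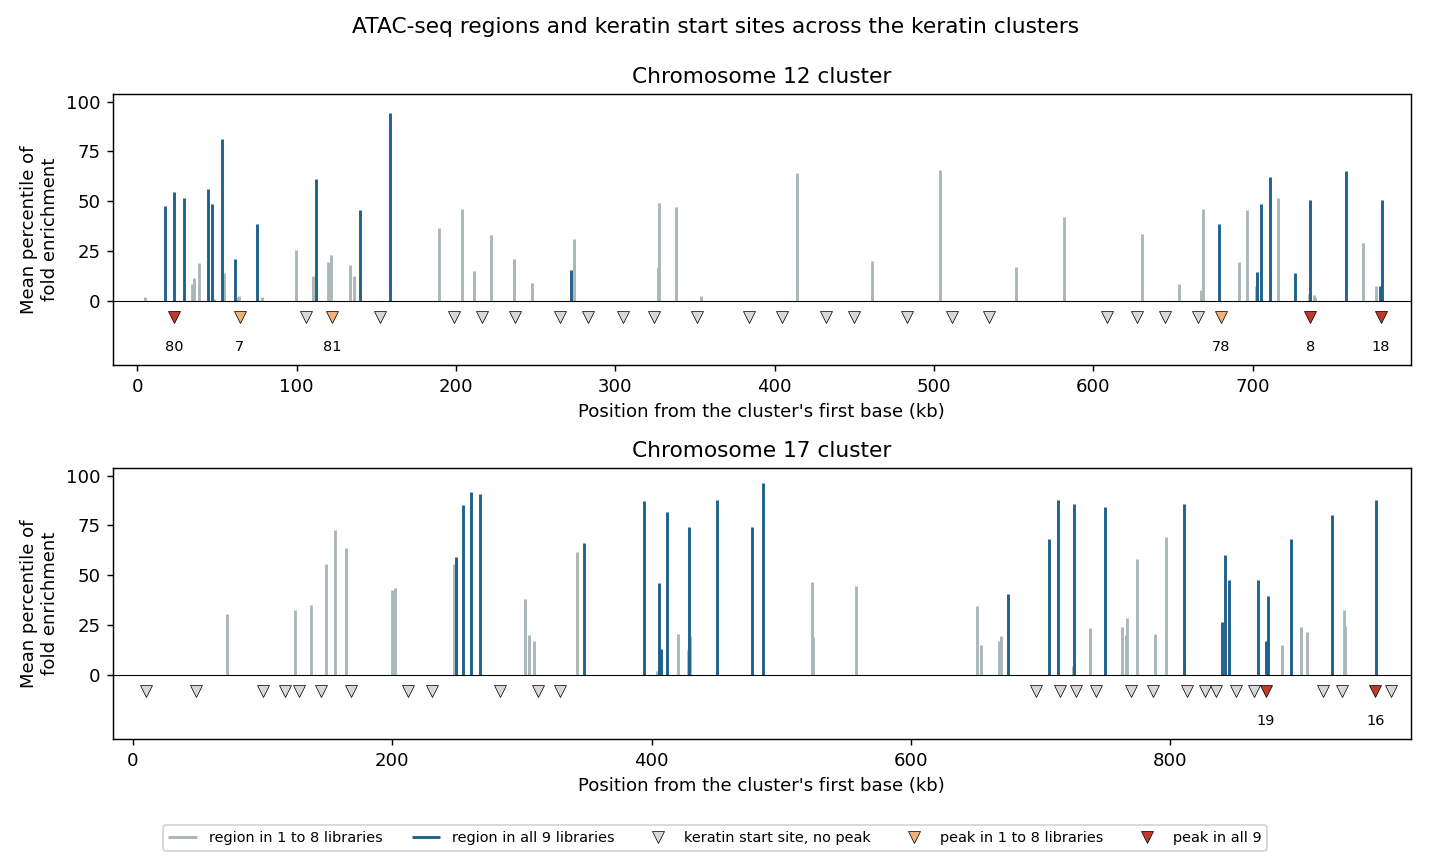
Regions across each cluster (horizontal axis, kb from its first base) with their mean percentile of fold enrichment (vertical axis). Blue lines are regions in all 9 libraries and grey lines regions in fewer. Triangles mark keratin start sites, and numbers name the KRT genes with a promoter peak. Blue lines are missing from 273 to 678 kb on chromosome 12, and many stand above 75 on chromosome 17 where start sites have no peak.

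Several of the strongest distal regions lay in or near hair keratin genes, most of whose own promoters had no peak in any library. Among regions found in all 9 libraries and outside promoter windows, the highest mean percentile on chromosome 12 was 94.0, at an intergenic region from 52327318 to 52328290, 6295 bp upstream of KRT83. It was followed by 81.3 at 52221804 to 52222565 (11206 bp upstream of KRT7, in the lncRNA gene LINC00592), 65.1 at the upstream KRT8 start from 52924869 to 52927743, 62.3 at 52879261 to 52880263, 61.4 at 52280099 to 52281515 in a KRT86 intron and 56.4 at 52213463 to 52214028. On chromosome 17 the 6 strongest such regions were at 40915160 to 40916130 (91.9), 40921979 to 40922722 (90.5), 41367426 to 41368340 in exon 2 of KRT33B (87.5), 41464355 to 41465140 in a KRT32 intron (85.6), 41379872 to 41380905 in a KRT34 intron (85.5) and 40909298 to 40910117 (85.2). The region at 40921979 was at 38.9 in shEZH2 replicate 2 and at 93.8 to 99.1 in the other libraries. Of the 17 hair keratins 4, KRT86, KRT33B, KRT34 and KRT32, had a region open in all 9 libraries in the gene body and no promoter peak in any library, and no gene of another class did. Hair keratins are the largest class, and the KRT86 gene body alone held 7 regions, 2 of them in all 9 libraries. The same share over all protein-coding genes was not computed, so the count cannot be read as a trait of hair keratins. Of the 31-base words in the KRT33B and KRT34 regions, 18.6% and 22.8% occur elsewhere, and of those in the KRT32 region none do (0%).

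The strongest distal regions are printed on the plus strand of hg38, 101 bases around the summit, to show which letters they hold. Capitals mark the AP-1, TEAD and SP1 motifs above and the CTCF motif, searched on both strands. The last line is the region with the highest mean percentile of either cluster (96.0), in the promoter window of the keratin-associated protein gene KRTAP4-6.
Upstream of KRT83, chr12:52327643-52327743, plus strand: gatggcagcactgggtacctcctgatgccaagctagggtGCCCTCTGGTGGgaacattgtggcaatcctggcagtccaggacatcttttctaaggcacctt
Upstream of KRT7, chr12:52221987-52222087, plus strand: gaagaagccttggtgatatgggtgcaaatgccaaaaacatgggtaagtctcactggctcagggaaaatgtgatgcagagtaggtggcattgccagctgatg
Between KRT20 and KRT23, chr17:40915403-40915503, plus strand: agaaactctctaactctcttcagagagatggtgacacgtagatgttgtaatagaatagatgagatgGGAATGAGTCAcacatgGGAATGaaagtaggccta
Between KRT20 and KRT23, second region, chr17:40922449-40922549, plus strand: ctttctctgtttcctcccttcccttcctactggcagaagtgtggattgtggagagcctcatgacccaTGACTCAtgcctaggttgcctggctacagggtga
KRTAP4-6, chr17:41140921-41141021, plus strand: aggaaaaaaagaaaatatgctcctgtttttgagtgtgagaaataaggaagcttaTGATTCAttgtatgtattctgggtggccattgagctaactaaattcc
A CTCF match stood in the region upstream of KRT83. AP-1 matches stood in the 3 regions of chromosome 17, in one of which the AP-1 match overlaps a TEAD match. Over the 36 open regions of the clusters outside promoter windows, an AP-1 match within 50 bp of the summit was held by 13 (36.1%), beside 34.0% in the genome. A TEAD match was held by 8 (22.2%), beside 12.9%, and 7 of these 8 were on chromosome 17. A CTCF match was held by 3 (8.33%), beside 3.99%.

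Whether keratin promoters opened or closed with EZH2 or E2F1 knockdown was asked first by presence of a peak. Keratin promoters with a peak numbered 6 and 7 in shCtrl, 7 and 5 in shEZH2, 6 and 7 in shE2F1, 7 in DMSO, 6 in GSK126 and 7 in shSUZ12. The mean was 6.5 ± 0.707 (SD, n = 2) in shCtrl and 6 ± 1.41 in shEZH2, a difference of -0.5 (exact permutation test over libraries, two-sided, p = 1, where 0.33 is the smallest p that 2 against 2 can give). With shE2F1 the mean was 6.5 ± 0.707 and the difference 0 (exact permutation p = 1). The sign with shEZH2 rested on 1 library: without shEZH2 replicate 2 the difference was 0.5, and without shCtrl replicate 2 it was 0.

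No keratin promoter peak was gained, that is, present in every treated library and in no control library, in any of the 4 comparisons. Of the 7 keratin promoters with a peak in any library compared, 0 were gained and 0 lost with shEZH2 (0.108% and 1.44% of all promoters), 0 and 0 with shE2F1 (0.280% and 0.848%), and 0 and 0 with shSUZ12 (1.24% and 1.10%). With GSK126 against DMSO 0 were gained and 1 was lost, KRT81 (1.28% and 2.82%), which rests on 1 library against 1.

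By percentile, a promoter was called higher or lower when every treated library lay beyond every control library. With shEZH2, KRT18 was higher and KRT16 lower among 5 keratins with a peak in all 4 libraries, beside 10.6% higher and 29.7% lower over all promoters. KRT18 stood at 44.3 ± 7.14 (SD, n = 2) in shCtrl and 70.5 ± 1.00 in shEZH2, and KRT16 at 92.6 ± 2.94 and 84.9 ± 4.0. With 2 libraries a group such a separation has an exact permutation p of 0.33 at best, and 1 of 5 genes in each direction cannot be set apart from those shares. The KRT18 call rested on the intronic peak and was absent with windows of 250 bp. KRT18 tags over the genome background of the library were 80.1 ± 14.0 in shCtrl and 79.5 ± 0.0386 in shEZH2, overlapping between groups, and the local background was 22.6 and 22.8 tags in shCtrl and 17 and 11.7 in shEZH2. By rank of summit tags KRT18 was also higher with shEZH2 (98.4 and 97.3 against 97.1 and 92.7), beside 3.05% of all promoters. For KRT16 the tags over genome background were 50.5 ± 2.80 and 33.3 ± 5.05, without overlap. By rank of summit tags KRT16 was also lower, beside 46.3% of all promoters. Tags over genome background were also lower without overlap for KRT8 (86.8 ± 10.5 and 62.9 ± 9.70) and KRT80 (84.0 ± 4.25 and 68.0 ± 6.19), while KRT19 overlapped. With shE2F1 they were lower without overlap for KRT8, KRT16, KRT18 and KRT80, and KRT19 overlapped. The share over all promoters was not computed for this measure.

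With shE2F1 no keratin of 5 was higher or lower (19.2% and 17% of all promoters). With shSUZ12, a single library, KRT7, KRT19 and KRT80 were higher and KRT16 and KRT18 lower of 6, beside 52.6% and 19.2% of all promoters. Without shCtrl replicate 1 none of these 5 passed the call, for which a gap of 10 percentile points was then asked, and without shCtrl replicate 2 only KRT19 and KRT18 did. With GSK126 against DMSO, 1 library each, KRT8 was lower of 6 by over 10 points (59.6 against 46.1) and none was higher, beside 15.4% and 6.87% of all promoters. The lower call of KRT18 with shSUZ12 rested on the intronic peak. Windows of 250 bp held only the weaker region over the TSS, which was higher (29.7 against 4.15 and 2.21 in shCtrl). The direction of KRT16 with shSUZ12 turned with the measure, as by rank of summit tags it was called higher, beside 37.4% of all promoters. KRT80 lost its call by −log10 p and by summit tags, and with GSK126 the call of KRT8 was lost by both, with KRT7 called lower instead by −log10 p.

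Across the clusters as a whole, the lists held 122 and 127 peaks per 100000 in shCtrl, 108 and 119 in shEZH2, 122 and 120 in shE2F1, 117 in DMSO, 113 in GSK126 and 117 in shSUZ12. The mean was 125 ± 3.60 (SD, n = 2) in shCtrl and 114 ± 8.04 in shEZH2, a difference of -10.97 (exact permutation test, two-sided, p = 0.33, the smallest possible). With shE2F1 the mean was 121 ± 1.06 and the difference -3.90 (exact permutation p = 0.33). Both knockdowns lay below both control libraries and share those controls. On chromosome 12 alone the values per 100000 peaks were 64.9 and 69.7 in shCtrl and 55.4 and 54.6 in shEZH2, without overlap. They were also below both shCtrl libraries in shE2F1 (60.03 and 64.1), shSUZ12 (59.9), GSK126 (53.8) and DMSO (56.3), which carries no EZH2 knockdown or inhibitor. On chromosome 17 they were 57.3 and 57.5 in shCtrl and 52.6 and 64.8 in shEZH2, so the groups overlapped there.

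Gains and losses of regions in the clusters were near those of the genome. With shEZH2, 1 of 115 regions was gained (0.870%, genome 0.888%) and 11 were lost (9.57%, genome 7.17%). With shE2F1, 4 of 120 were gained (3.33%, genome 2.88%) and 6 lost (5.00%, genome 3.77%). With shSUZ12, 4 of 109 were gained (3.67%, genome 6.65%) and 8 lost (7.34%, genome 8.54%). With GSK126 against DMSO, 7 of 89 were gained (7.87%, genome 8.61%) and 14 lost (15.7%, genome 17%). Losses with shEZH2 numbered 7 on chromosome 12 and 4 on chromosome 17, and those with shE2F1 6 and 0, while the 4 gains with shE2F1 were all on chromosome 17.

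**Figure D5:**
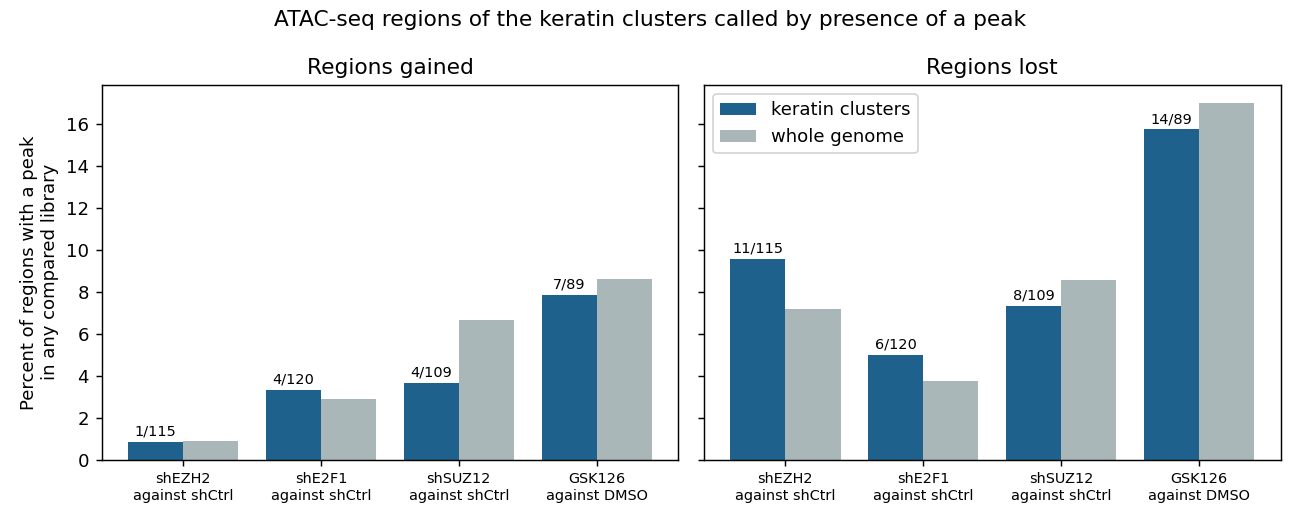
Percent of regions gained (left) and lost (right) in the 2 keratin clusters and in the whole genome (vertical axis) for each comparison, with the number called over the number that could be called. The cluster bars lie within 3 percentage points of the genome bars.

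The regions that were gained or lost with shEZH2 or shE2F1 lay outside keratin promoter windows, except 1 weak region at the edge of that of KRT8. The 1 region gained with shEZH2, from 41178339 to 41178697 on chromosome 17 in the promoter window of KRTAP4-2, stood at percentiles of 53.3 and 61.1 and was also gained with shE2F1, at 39.5 and 32.6. It had no peak in shCtrl, DMSO, GSK126 or shSUZ12. The strongest region gained with shE2F1, at 40810534 to 40810881, 10766 bp upstream of KRT28, stood at 68.6 and 76.6 and had a peak in no other library. The other gains, 16847 and 12365 bp downstream of the KRT9 start, stood between 11.8 and 36.8.

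The strongest losses with shEZH2 were at 41428529 to 41429101, 4109 bp upstream of KRT37 (62.5 and 80.0 in shCtrl), 40902012 to 40902703, upstream of KRT20 (49.8 and 74.9), 40803600 to 40803891, upstream of KRT28 (75.9 and 38.6), 52507041 to 52507405, downstream of the KRT5 start (62.5 and 42.2), and 40960106 to 40960492 in exon 6 of KRT39 (22 and 42.2). The shSUZ12 library held a peak in each of these regions, and the DMSO library in each but the one near KRT5. With shE2F1 the strongest losses were at 52288156 to 52288795 in introns of KRT81 and KRT86 (13.8 and 36.4 in shCtrl) and at 52304994 to 52305295 in a KRT86 intron (21.9 and 16.5). Both were also lost with shEZH2, against the same control libraries. A region 1131 bp inside KRT8, at percentiles of 3.1 and 2.5 in shCtrl, was lost with shE2F1 as well, beside the KRT8 promoter peak that stayed in every library.

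Marker promoters of both mesenchymal-like and epithelial cells held peaks. Of 10 mesenchymal-like markers, 6 had a promoter peak in all 9 libraries and 7 in any, beside 60.0% and 70.9% of all promoters. VIM (vimentin) stood at percentiles of 22.1 to 60.3. Median percentiles were 47.4 for FN1, 52.4 for ZEB1, 43.7 for SNAI2, 37.7 for CAV1 and 18.1 for AXL. ZEB2 had a peak only in both shCtrl libraries and in shSUZ12, and SPARC, TWIST1 and CDH2 had none. Of 12 epithelial markers 3 had one in all 9, a lower share than over all promoters, and 10 in any. The adhesion molecule EPCAM had one in all 9 (61.3 to 92.2), as had CLDN3 and CLDN4 (medians 78.9 and 21.8). Those open in 8 were mostly low in the lists. Their median percentiles were 12.8 for CDH1 (E-cadherin), 6.15 for CLDN7, 7.64 for ESRP1, 1.19 for ESRP2 and 13.3 for OVOL2. ST14 had one in 3 libraries (median 0.966) and GRHL2 in 1 (61.2), and RAB25 and OVOL1 had none. Of 5 luminal markers 1, ERBB3, had one in all 9, and 4 had one in any. ESR1 had one in 8 libraries and PGR and FOXA1 in 7, while GATA3 had none. Of 5 hair follicle factors 3 had one in all 9, LEF1, MSX2 and DLX3 (median percentiles 18.8, 70.6 and 7.51). HOXC13 and FOXN1 had none. With shEZH2, 6 mesenchymal-like, 4 epithelial, 3 luminal and 3 hair follicle promoters were compared by percentile. VIM and MSX2 were higher and FN1, ZEB1 and AXL lower, beside 10.6% and 29.7% of all promoters. With shE2F1 these numbers were 6, 7, 2 and 3. PGR was higher and FN1, AXL, CLDN4, ESRP1, ERBB3 and DLX3 lower, beside 19.2% and 17%.

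Among genes that anchor keratin filaments or regulate keratin genes, the share of open promoters was near that of the genome (60.0% in all 9 libraries). It was lower among other intermediate filament genes. Of 20 desmosome and hemidesmosome genes, which anchor keratin filaments at the cell border, 13 had a promoter peak in all 9 libraries (65.0%), and the cadherin genes DSC1, DSC3, DSG1 and DSG3 of stratified epithelia had none. Of 16 regulators of keratin genes 11 had one (68.8%), and GRHL3, TFAP2A, EHF and OVOL1 had none. Of 13 other intermediate filament genes 6 had one (46.2%), while 7 neuronal, glial or muscle filament genes had none. With shEZH2, 3 of 13 desmosome genes were lower and 0 higher, and 4 regulators of 11 were higher and 4 lower, beside 10.6% higher and 29.7% lower over all promoters. With shE2F1, 1 desmosome gene was higher and 1 lower, and 2 regulators were higher and 3 lower, beside 19.2% and 17%.

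The keratin-associated protein genes, which encode the matrix of the hair shaft, share the chromosome 17 cluster. Of 34 such genes 5 had a promoter peak in all 9 libraries (14.7%, beside 60.0% of all promoters) and 26 in none. The 5 were KRTAP4-6 (percentiles 92.1 to 98.7), KRTAP4-9 (73.9 to 96.6), KRTAP2-4 (68.0 to 90.0), KRTAP4-7 (58.7 to 96.7) and KRTAP2-3 (13.6 to 68.5). In the regions at KRTAP4-9 and KRTAP4-7, 74.3% and 70.3% of the 31-base words occur elsewhere in the genome, so these signals cannot be placed on 1 gene, while at KRTAP4-6 the share was 7.48%. Outside the clusters, of the 10 nearest protein-coding genes on each side of each cluster, 40 in all, 22 had a promoter peak in all 9 libraries, a share near the 60.0% of all promoters.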

How the data were processed

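The authors aligned ATAC-seq reads of MDA-MB-231 cells with Bowtie2, keeping up to 4 alignments per read, shifted them by +4 and -5 bp for Tn5 and called peaks per library on hg38. The peak caller is not given in the sources used here. Keeping several alignments lets reads from repeated sequence count at more than 1 place. The deposited lists give a score, a fold enrichment (a ratio to local background) and the −log10 of p and q, as the authors' caller made them. Read counts were not used here, so no count model was run.

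Members and gene lists were chosen with earlier results of these data known. Every keratin with a promoter peak was named, and of other regions the strongest 6 per cluster or comparison. Promoters reached 1 kb to either side of canonical start sites (GENCODE v44), and a peak counted at an overlap of 1 bp. A percentile is the share of the library's list at or below a value. A region was gained or lost by presence of a peak in every library of one group and none of the other. Peaks were merged over 9 libraries at 1 bp. Tags and local background were recovered from fold enrichment and −log10 p for 100% of peaks, within 0.002 in −log10 p, as a description of depth. The most frequent background, from 1.41 to 2.18 tags, stands for the genome background of a library. No peak lay outside the chromosomes of the reference.

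Group differences were tested by exact permutation over libraries. Replicate numbers were not taken to pair the libraries in the main test. The differences between replicates correlated across promoters at 0.0520 (shCtrl and shEZH2) and 0.0576 (shCtrl and shE2F1). These correlations cannot show whether libraries of the same number were prepared together. Alternatives were a −log10 q of at least 5, equal list lengths of 58626 peaks, other windows, start sites and ranks, and leaving out each replicate. The rank by summit tags was added after the data were seen. Some promoter sequences are not reported here. Scripts ran in Python 3.11.15 (pandas 2.3.3, numpy 2.4.6, pysam 0.24.0, scipy 1.17.1, matplotlib 3.10.9).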

Additional observations from a re-analysis of the deposited data

How the results depend on the processing

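The count of keratin promoters open in every library was 5 under each planned threshold, window and left-out replicate, and 7 with any protein-coding start site, which moved the basal count from 0 to 1. With 2 libraries against 2 the exact test cannot go below 0.33, and list depth limits which weak peaks are seen.

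The difference in number of open promoters with shEZH2 (-0.5) ranged from -1.5 to 0.5 when a replicate was left out, reversing to 0.5 without shEZH2 replicate 2. With shE2F1 (0) it ranged from -0.5 to 0.5, and it was -0.5 with equal list lengths, with the summit in the window and with the 250 bp window. With the replicate block the differences were -0.5 and 0 in number (exact permutation p = 1 for both) and -10.97 and -3.90 in peaks per 100000 (exact permutation p = 0.5 for both). The block leaves such mean differences the same by construction, and calls of promoters and regions were not made with it. Peaks per 100000 ranged from -16.7 to -5.28 with shEZH2 and from -6.45 to -1.36 with shE2F1 over left-out replicates.

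With equal list lengths, regions gained and lost were 3 and 6 with shEZH2 and 1 gained with shE2F1, and 4 were lost with shSUZ12 and 8 with GSK126. Over left-out replicates, shEZH2 gained 1 to 6 regions and lost 14 to 26, shE2F1 gained 5 to 13 and lost 7 to 17, and shSUZ12 gained 6 to 8 and lost 14 to 20.

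Promoters higher with shEZH2 numbered 2 with equal list lengths and with any start site (KRT8 and KRT18) and 0 with the 250 bp window. Those lower numbered 0 with equal list lengths and 2 with any start site. With shE2F1, 1 was higher with equal list lengths (KRT8). By summit tags 1 was higher (KRT16) and 1 lower (KRT80), beside 12.02% and 24.06% of all promoters. With shSUZ12, 5 were higher with any start site. Of those lower, 0 remained with equal list lengths, by −log10 p and by summit tags, and 1 with the 250 bp window. In that window KRT18 was called higher, from the region over its TSS. By summit tags KRT16 was called higher, beside 37.4% of all promoters. With GSK126, 1 was higher and 0 lower with any start site, and 0 were lower by summit tags, while by −log10 p KRT7 was lower in place of KRT8. Over left-out replicates the counts higher and lower ran from 1 to 2 and 1 to 3 with shEZH2, 0 to 3 and 0 to 3 with shE2F1, and 0 to 1 and 0 to 1 with shSUZ12. The cause of these moves was not tested.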
